A study of Homo sapiens with 16 samples.

Results

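Heat shock proteins and their partners were followed in MCF-10A cells over 45 h with a HER2 kinase inhibitor. The genes are HSPA1A, HSPA1B, HSPA8, HSPH1, DNAJB1, HSPB1, HSP90AA1, HSPD1, HSPE1 and BAG3, chosen by symbol, and each probe was kept apart. All 10 are among the 18190 symbols of the array, with 13 of its 20589 rows. MCF-10A is a nontransformed line of human breast epithelium that depends on insulin and epidermal growth factor, and both were in the medium together with hydrocortisone throughout. The inhibitor CP724714 is a small molecule given here at 1 µM, and parallel cultures were harvested every 3 h, each for 1 Illumina array. The 0 h array is untreated, the 15 arrays from 3 to 45 h are treated, and the medium was renewed when treatment began. There is 1 array per time point and no untreated series at the same hours, so the effects of the inhibitor, of fresh medium and of time in culture cannot be told apart.

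Heat shock proteins are molecular chaperones that bind unfolded or partly folded proteins, keep them from clumping and help them reach their working shape. HSP70 proteins take up and release clients in a cycle driven by ATP, in which J proteins such as DNAJB1 start the cycle and nucleotide exchange factors such as HSPH1 and BAG3 reset it. HSP90 completes the folding of many kinases and receptors, HER2 among them, and the HSPD1 and HSPE1 chaperonin folds proteins inside mitochondria. In resting cells the transcription factor HSF1 is held inactive by chaperones, and on stress it binds heat shock elements, repeats of a short unit in alternating orientation, near the starts of these genes.

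The labelled cell type was checked on its markers. Of 11 mammary epithelial markers, 8 were above background (detection p under 0.05) on all 16 arrays, with KRT5 at a median log2 intensity of 15.05. The other 3 were KRT14, above background on 1 array with a median of 5.59, TP63 on 10 arrays with a median of 6.32, and LAMB3 on 4 arrays despite a median of 11.21, in a row that combines several values, where detection p need not follow intensity. None of 4 fibroblast markers and neither ESR1 nor PGR was above background on any array. CD14 was above background on 12 arrays with a median log2 intensity of 6.61, PTPRC on 5 arrays, PECAM1 on 15 arrays with a median of 7.11, and CDH5 on none. Each array had 10325 to 10889 rows above background. Of the 13 heat shock rows, 12 were above background on all 16 arrays and were tested. The other row, ILMN_3394, is a further probe for HSPD1, with raw intensities of 169 to 214 that were above background on no array, so it stands as not above background.

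Stretches of the promoters of some of these genes are shown before the values. RefSeq (GRCh38.p14) gives 14 promoter windows for the 10 genes, each of 250 bases before and 50 after an annotated start. Heat shock units were searched as pairs, GAANNTTC or TTCNNGAA, which each read the same on both strands, and as runs of 3 units, GAANNTTCNNGAA or TTCNNGAANNTTC, which are each other's reverse complement and contain both pairs. A pair was present in 8 of the 14 windows, which belong to 7 genes, and in 13.5% of all 35116 windows. A run of 3 units was present in 3 of the 14, those of HSPA8, HSP90AA1 and HSPD1, and in 0.49% of all windows. No match was present in the windows of HSPH1, HSPE1 and BAG3, which says only that these letters are not there. A match is a description of sequence and does not show that a factor binds. Whether matches bear on the time courses below was not tested. The stretches below run 5′ to 3′ on the strand of the gene, all before the start, and capitals mark the units. HSPA1A and HSPB1 stand for the HSP70 and small heat shock families. The HSPA1A stretch is chr6:31815293-31815542 on the plus strand, with its pair at -106. The HSPB1 stretch is chr7:76302423-76302672 on the plus strand, with its pair at -182.
HSPA1A: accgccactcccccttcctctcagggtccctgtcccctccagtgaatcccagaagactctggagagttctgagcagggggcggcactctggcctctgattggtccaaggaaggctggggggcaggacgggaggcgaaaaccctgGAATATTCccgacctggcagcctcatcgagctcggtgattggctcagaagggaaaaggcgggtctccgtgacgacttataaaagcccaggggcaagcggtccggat
HSPB1: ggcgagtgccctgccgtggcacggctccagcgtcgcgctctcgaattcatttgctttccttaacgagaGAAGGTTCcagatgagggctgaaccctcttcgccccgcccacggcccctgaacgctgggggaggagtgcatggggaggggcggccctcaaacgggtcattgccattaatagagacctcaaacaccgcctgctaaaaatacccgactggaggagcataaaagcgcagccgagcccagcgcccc

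For DNAJB1, HSP90AA1, HSPA8 and HSPD1 the annotated span of the gene itself covers the bases before the start used, so only 30 bases around matches are shown, all on the minus strand. That of DNAJB1 is chr19:14518426-14518455, before the second of 3 annotated starts, with a pair at -47, and a further pair lies at -77. That of HSP90AA1 is chr14:102087104-102087133, before the second of 2 annotated starts, with 3 units from -88 and a pair at -68. Those of HSPA8 are chr11:123062345-123062374 with units from -230 and chr11:123062170-123062199 with units from -55. That of HSPD1 is chr2:197500061-197500090, before the second of 2 annotated starts, where overlapping runs from -245 and -240 join 4 units.
DNAJB1: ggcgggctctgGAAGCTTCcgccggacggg
HSP90AA1: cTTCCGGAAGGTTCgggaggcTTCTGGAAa
HSPA8 distal: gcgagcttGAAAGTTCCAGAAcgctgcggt
HSPA8 proximal: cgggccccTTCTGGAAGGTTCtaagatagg
HSPD1: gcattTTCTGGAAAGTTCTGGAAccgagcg

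HSPD1 and HSPE1, partners in the same chaperonin, lie head to head. The first annotated start of HSPD1 and the start of HSPE1 point away from each other with 104 bases between them. This stretch, chr2:197500275-197500378, is printed on the plus strand and holds no match. The HSPD1 units printed above, chr2:197500061-197500090, lie past the first HSPD1 start, on the HSPD1 side of this stretch. They are outside the HSPE1 window, which begins at 197500129, so the search did not count them for HSPE1.
HSPD1 to HSPE1: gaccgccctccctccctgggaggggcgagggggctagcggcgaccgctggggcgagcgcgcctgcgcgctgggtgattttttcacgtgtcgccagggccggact

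**Figure D1:**
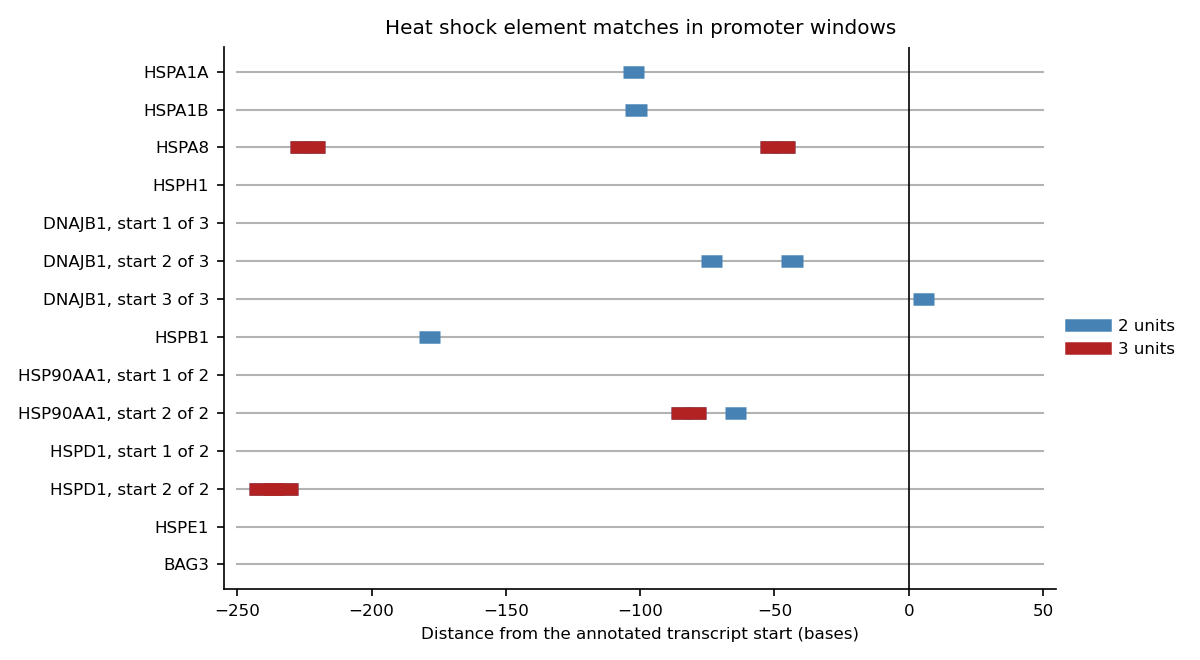
Heat shock element matches in the 14 promoter windows of the 10 genes. The horizontal axis is the distance from the annotated start in bases, each grey line is a window from -250 to 50, blue bars are pairs of units and red bars are runs of 3 units; red bars are seen for HSPA8, HSP90AA1 and HSPD1.

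Each level is a log2 intensity after background correction and quantile normalization, so a difference of 1 is a doubling of intensity. A curve over time was tested with limma on all 11957 probes above background on at least 3 arrays, and windows of consecutive time points were compared, with adjusted p under 0.05 as a call. Windows are not replicates, and their spread also holds change within a window. Of the 12 heat shock probes, 8 varied with time, beside 54.6% of all tested probes. From 0 to 3 h to 6 to 9 h, 5 of the 12 rose, beside 13.5% of all tested probes, and 1 fell, beside 11.1%. From 6 to 9 h to 12 to 21 h, 4 rose, beside 12.8%, and 0 fell, beside 12.7%. From 12 to 21 h to 24 to 33 h limma called 0 of the 12, beside 0.0669% of all tested probes, and 2 had an unadjusted p under 0.05. From 24 to 33 h to 36 to 45 h, 7 fell, beside 22.7%, and 2 rose, beside 22.6%. From 0 to 9 h to 36 to 45 h, 1 rose, beside 16.2%, and 2 fell, beside 15%. These comparisons share arrays, and HSPA8 and HSP90AA1 count with 2 probes each. The curve test called 6 genes, the step to 6 to 9 h called 5 and the step to 12 to 21 h called 4. The step to 36 to 45 h called 7 genes, and the last window against the first 9 h called 3. The 7 probes that fell late were both of HSPA8, both of HSP90AA1, and those of HSPH1, HSPD1 and HSPE1. The median ratio of the highest to the lowest intensity was 1.88-fold for the heat shock probes and 1.88-fold for all tested probes, so the spans of these genes were of the common size. In bulk RNA, a change in the cells present and a change in RNA per cell cannot be told apart.

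**Figure D2:**
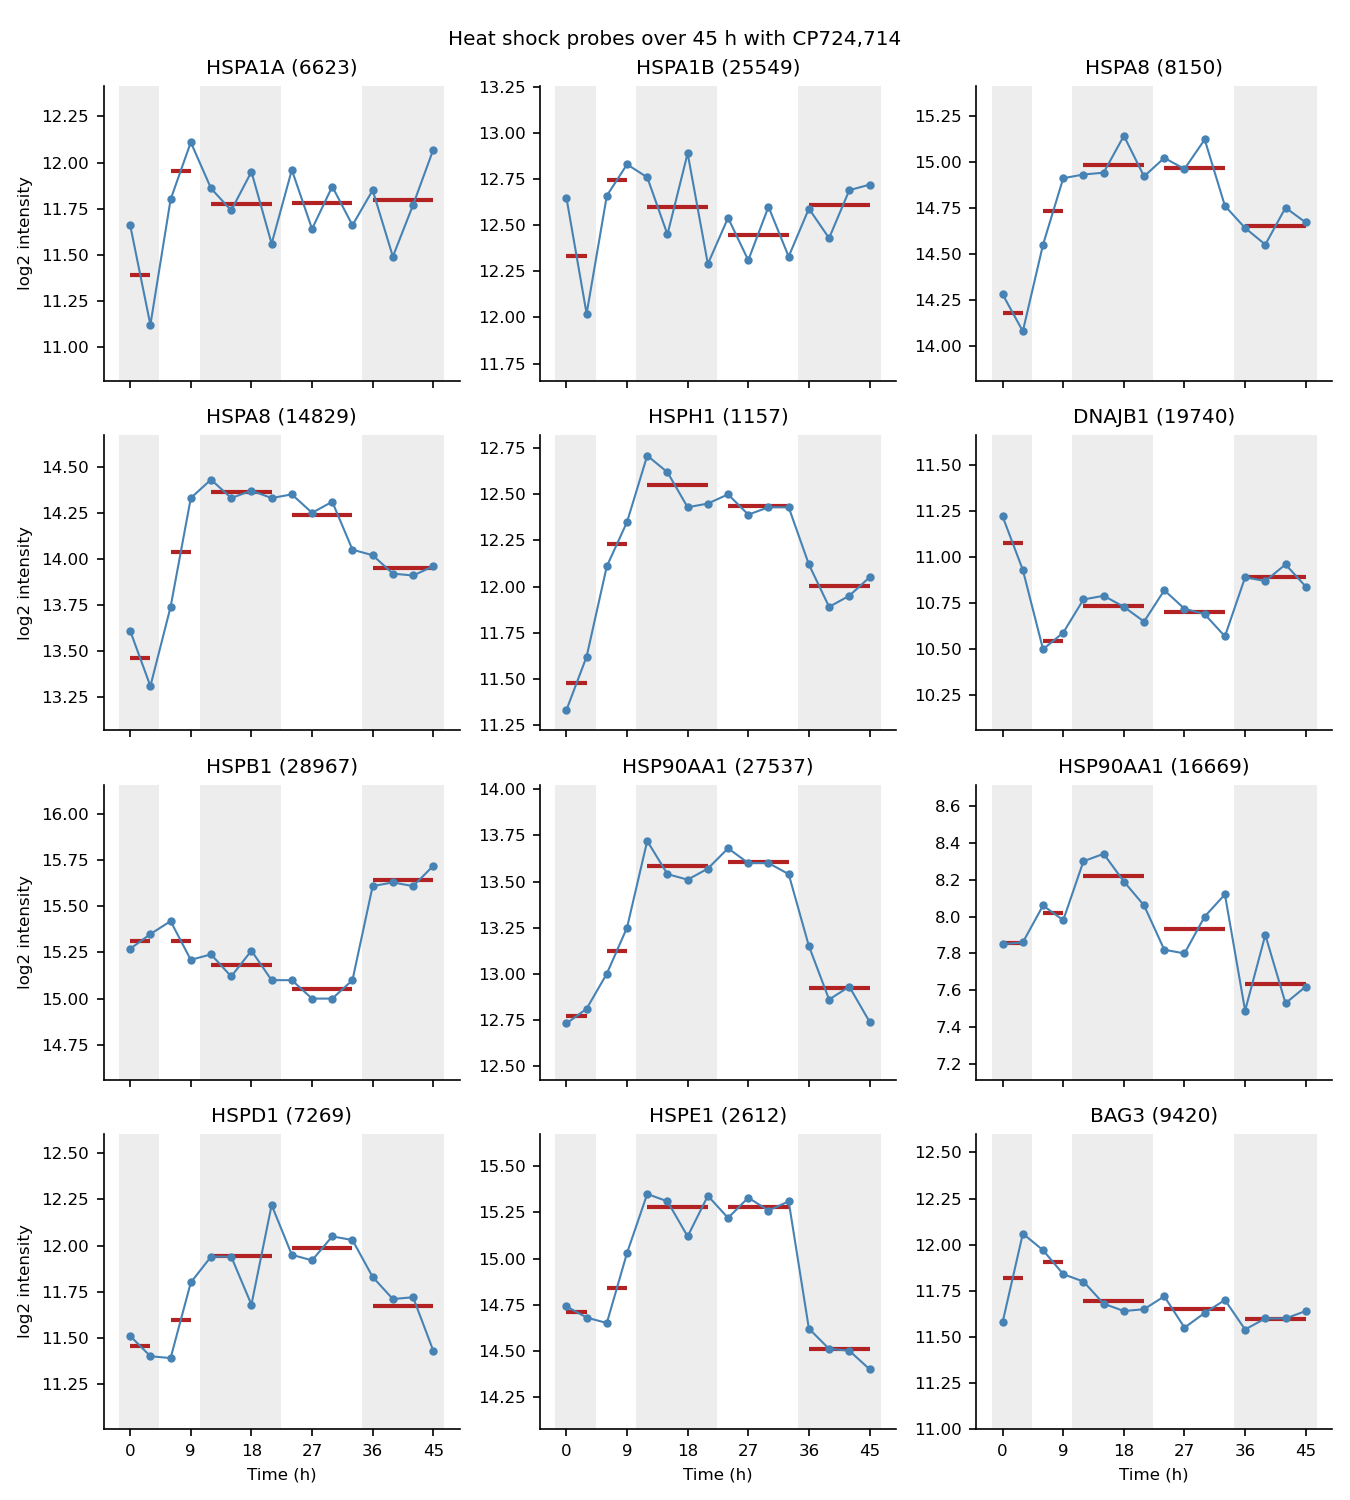
Log2 intensity of the 12 tested heat shock probes against time in hours, 1 array per point, with probe numbers in brackets. Grey and white bands are the 5 windows and red bars their means; every vertical axis spans the same number of log2 units, and HSPE1 and the brighter HSP90AA1 probe show a plateau from 12 to 33 h between lower levels.

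HSPA1A and HSPA1B encode the stress-inducible HSP70, and they are nearly identical genes, so a probe for either may also bind RNA of the other. HSPA1A was lowest at 3 h, at 11.12, had a median of 11.78 and was highest at 9 h, at 12.11. HSPA1B was lowest at 3 h, at 12.02, had a median of 12.59 and was highest at 18 h, at 12.89. The array at 3 h was the low one for both, and the windows from 12 h on overlapped for both. HSPA1A was 11.66 and 11.12 at 0 and 3 h and 11.80 and 12.11 at 6 and 9 h, a rise of 0.56 (SE 0.18, adjusted p = 0.026). That call was lost without the 3 h array, at 0.29 (adjusted p = 0.29), and without the 9 h array, at 0.41 (adjusted p = 0.25). HSPA1B differed by 0.40 over the same step (SE 0.18, adjusted p = 0.12), by 0.72 without the 0 h array (adjusted p = 0.011) and by 0.09 without the 3 h array (adjusted p = 0.78). Neither varied with time in the curve test, with adjusted p = 0.25 for HSPA1A and adjusted p = 0.33 for HSPA1B. The end of the series differed from its first 9 h by 0.12 for HSPA1A (95% interval -0.22 to 0.47) and by 0.07 for HSPA1B (95% interval -0.25 to 0.38). Without the 3 h array these were -0.06 (adjusted p = 0.77) and -0.10 (adjusted p = 0.55), and between 0 and 3 h and 42 and 45 h they were 0.53 (adjusted p = 0.027) and 0.37 (adjusted p = 0.14).

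HSPA8, the constitutive HSP70 of the cytosol, took another course. Its 2 probes moved together, with r = 0.96 over the 16 arrays. Probe ILMN_8150 was lowest at 3 h, at 14.08, had a median of 14.84 and was highest at 18 h, at 15.14. Probe ILMN_14829 was lowest at 3 h, at 13.31, had a median of 14.15 and was highest at 12 h, at 14.43. Both were low at 0 and 3 h, high from 9 to 30 h and lower again from 36 h. From 0 to 3 h to 6 to 9 h, ILMN_8150 rose by 0.55 (SE 0.11, adjusted p = 0.0015). Its windows did not overlap, as for 27.4% of all tested probes in this direction. ILMN_14829 rose by 0.58 over that step (SE 0.13, adjusted p = 0.0032). Without the 9 h array these differences were 0.37 (adjusted p = 0.056) and 0.28 (adjusted p = 0.12) for ILMN_8150 and ILMN_14829, in that order. The largest step between neighbouring arrays was 0.46 at 6 h for ILMN_8150 and 0.59 at 9 h for ILMN_14829. To 12 to 21 h, ILMN_14829 rose by a further 0.33 (adjusted p = 0.041) and ILMN_8150 differed by 0.25 (adjusted p = 0.068), by 0.07 (adjusted p = 0.75) without the 6 h array, by 0.43 (adjusted p = 0.011) without the 9 h array and by 0.25 (adjusted p = 0.047) without the 33 h array. The call of ILMN_14829 was lost in 9 of 22 alternatives, with a difference of 0.04 (adjusted p = 0.87) without the 6 h array and 0.62 (adjusted p = 0.00057) without the 9 h array. Leaving out the array at 12, 15, 18, 21, 27, 30 or 39 h moved it to between 0.31 and 0.34, with adjusted p = 0.082 at most, without 12 h. The late fall was 0.31 for ILMN_8150 (SE 0.08, adjusted p = 0.0035), whose values of 14.64, 14.55, 14.75 and 14.67 at 36 to 45 h all lay below the lowest of 24 to 33 h, 14.76, as for 22.6% of all tested probes. For ILMN_14829 the late difference was -0.29 (SE 0.09, adjusted p = 0.016), -0.23 (adjusted p = 0.053) under cyclic loess and -0.25 (adjusted p = 0.056) without the 24 h array.

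Against the first 9 h, the last window of HSPA8 differed by 0.19 for ILMN_8150 (adjusted p = 0.25) and by 0.21 for ILMN_14829 (adjusted p = 0.27). Without the 9 h array they were 0.35 (adjusted p = 0.0094) and 0.40 (adjusted p = 0.0015), and without the 3 h array 0.07 (adjusted p = 0.67) and 0.06 (adjusted p = 0.74). Between 0 and 3 h and 42 and 45 h they were 0.53 (adjusted p = 0.0017) and 0.48 (adjusted p = 0.012), and under median scaling that of ILMN_8150 was 0.34 (adjusted p = 0.077).

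HSPH1, an HSP110 protein that exchanges nucleotide on HSP70 and helps it pull apart aggregates, had the widest span of the 12 probes. It was lowest at 0 h, at 11.33, had a median of 12.37 and was highest at 12 h, at 12.71, a ratio of 2.6-fold that exceeded the span of 82.9% of tested probes. The level climbed at each array from 0 to 12 h, held from 18 to 33 h between 12.39 and 12.50, and dropped at 36 h. HSPH1 was 11.33 and 11.62 at 0 and 3 h and 12.11 and 12.35 at 6 and 9 h, a rise of 0.75 or 1.69-fold (SE 0.11, adjusted p = 6.4e-05). It rose by 0.33 to 12 to 21 h (SE 0.10, adjusted p = 0.018), a difference of 0.21 (adjusted p = 0.29) without the 6 h array. At 36 to 45 h it read 12.12, 11.89, 11.95 and 12.05, all below the 4 values of 24 to 33 h, as for 22.6% of all tested probes. It had fallen by 0.44 (SE 0.08, adjusted p = 0.00014). By then it differed from the first 9 h by 0.15 (adjusted p = 0.47), by -0.02 without the 0 h array (adjusted p = 0.91) and by 0.32 without the 9 h array (adjusted p = 0.062). Between 0 and 3 h and 42 and 45 h the difference was 0.53 (adjusted p = 0.0018).

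DNAJB1, the J protein that hands clients to HSP70, went the other way early. It was highest at 0 h, at 11.22, and lowest at 6 h, at 10.50, with a median of 10.78. DNAJB1 was 11.22 and 10.93 at 0 and 3 h and 10.50 and 10.59 at 6 and 9 h, and fell by 0.53 (SE 0.10, adjusted p = 0.00099), with both values of 6 to 9 h below both of 0 to 3 h, as for 28.7% of all tested probes. From 12 h on it stayed between 10.57 and 10.96, with all of 12 to 21 h above 6 to 9 h, as for 20.9% of all tested probes. That step was 0.19 (adjusted p = 0.14) and under median scaling 0.31 (adjusted p = 0.03). The curve test gave adjusted p = 0.15, with adjusted p = 0.042 without the 6 h array and adjusted p = 0.027 with 5 degrees of freedom. The late rise of 0.19 (SE 0.07, adjusted p = 0.044) lost its call in 9 of 22 alternatives and was 0.05 (adjusted p = 0.69) under median scaling. Leaving out the array at 15, 27, 30, 33, 36, 39 or 42 h also ended the call, with adjusted p = 0.14 at most, without 33 h. The difference without each of these arrays was 0.15 to 0.20.

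BAG3, which couples HSP70 to small heat shock proteins and to autophagy, had a brief peak. It was 11.58 at 0 h, highest at 3 h, at 12.06, and lowest at 36 h, at 11.54, with a median of 11.65, and declined over the arrays from 3 to 18 h. No step between neighbouring windows of BAG3 passed the test. The step to 6 to 9 h was 0.08 (adjusted p = 0.65), 0.32 (adjusted p = 0.028) without the 3 h array and -0.16 (adjusted p = 0.36) without the 0 h array. The step to 12 to 21 h was -0.21 (adjusted p = 0.12), with adjusted p = 0.036 without the 0 h array, adjusted p = 0.037 without the 3 h array, and -0.06 (adjusted p = 0.74) under median scaling. The late step was -0.06 (adjusted p = 0.61) and -0.23 (adjusted p = 0.029) under median scaling. The curve test gave adjusted p = 0.08, with adjusted p = 0.00048 without the 0 h array, adjusted p = 0.047 under cyclic loess and adjusted p = 0.037 with 5 degrees of freedom. Between 0 to 9 h, with 11.58, 12.06, 11.97 and 11.84, and 36 to 45 h, with 11.54, 11.60, 11.60 and 11.64, BAG3 fell by 0.27 (SE 0.08, adjusted p = 0.021), and only the 0 h value of the earlier window overlapped the later one. The call was lost in 6 of 24 alternatives, among them median scaling at -0.15 (adjusted p = 0.2) and the omission of the 3 h array at -0.21 (adjusted p = 0.074), of the 6 h array at -0.24 (adjusted p = 0.064) or of the 36 h array at -0.25 (adjusted p = 0.053).

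HSP90AA1, the inducible HSP90 of the cytosol, has 2 probes that agreed only in part, with r = 0.55 over 16 arrays. Probe ILMN_27537 was lowest at 0 h, at 12.73, had a median of 13.38 and was highest at 12 h, at 13.72. Probe ILMN_16669 was lowest at 36 h, at 7.49, had a median of 7.94 and was highest at 15 h, at 8.34. ILMN_27537 climbed at each array from 0 to 12 h, lay between 13.51 and 13.72 through 33 h and came down from 36 h. It rose by 0.35 to 6 to 9 h (SE 0.11, adjusted p = 0.021) and by 0.46 to 12 to 21 h (SE 0.09, adjusted p = 0.0015). The earlier of these calls was lost without the 0 h array, at 0.31 (adjusted p = 0.12), without the 9 h array, at 0.23 (adjusted p = 0.26), and under cyclic loess, at 0.30 (adjusted p = 0.058), and the later one without the 6 h array, at 0.33 (adjusted p = 0.068). At 24 to 33 h ILMN_27537 read 13.68, 13.60, 13.60 and 13.54 and at 36 to 45 h 13.15, 12.86, 12.93 and 12.74. These windows did not overlap, as for 22.6% of all tested probes in this direction. ILMN_27537 had fallen by 0.68, a ratio of 0.622 (SE 0.08, adjusted p = 7e-07). The last window was then within -0.03 of the first 9 h (95% interval -0.24 to 0.18). The dimmer probe fell by 0.30 over the late step (SE 0.12, adjusted p = 0.044), with overlapping windows. That call was lost in 6 of 22 alternatives, in which the difference lay between -0.24 and -0.30. The difference had adjusted p = 0.14 without the 33 h array, adjusted p = 0.12 without the 36 h array, adjusted p = 0.11 without the 42 h array, adjusted p = 0.1 without the 30 h array and adjusted p = 0.075 without the 45 h array. With no background correction it was -0.17 (adjusted p = 0.048). Against the first 9 h the dimmer probe differed by -0.30 (adjusted p = 0.064), by -0.39 without the 39 h array (adjusted p = 0.026), and with adjusted p = 0.046 among probes above background on all 16 arrays. That difference was -0.17 (adjusted p = 0.07) with no background correction and -0.14 (adjusted p = 0.4) under median scaling. The curve test called the dimmer probe, with adjusted p = 0.022. That call was lost without the 12 h array (adjusted p = 0.056), the 15 h array (adjusted p = 0.067) or the 42 h array (adjusted p = 0.06). With 5 degrees of freedom the curve test gave adjusted p = 0.058.

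HSPE1 and HSPD1 form the mitochondrial chaperonin, HSPE1 as its lid and HSPD1 as its barrel, and they share the stretch of 104 bases printed above. HSPE1 was lowest at 45 h, at 14.40, had a median of 15.07 and was highest at 12 h, at 15.35. HSPE1 held 14.65 to 14.74 from 0 to 6 h, read 15.03 at 9 h and lay between 15.12 and 15.35 from 12 to 33 h. At 36, 39, 42 and 45 h HSPE1 read 14.62, 14.51, 14.50 and 14.40, below every earlier value of the series. HSPE1 rose by 0.44 from 6 to 9 h to 12 to 21 h (SE 0.09, adjusted p = 0.001), a difference of 0.25 (adjusted p = 0.078) without the 6 h array. The step before, from 0 to 3 h to 6 to 9 h, was 0.13 (adjusted p = 0.37), 0.32 (adjusted p = 0.02) without the 6 h array and -0.06 (adjusted p = 0.74) without the 9 h array. HSPE1 fell by 0.77 from 24 to 33 h to 36 to 45 h, a ratio of 0.585 (SE 0.07, adjusted p = 6.4e-08), a call kept in all 22 alternatives. It also fell by 0.27 against the first 9 h (SE 0.07, adjusted p = 0.01), but by median scaling the difference was -0.16 (adjusted p = 0.11), and between 0 and 3 h and 42 and 45 h it was -0.26 (adjusted p = 0.055). HSPD1, read by a row that combines several values, was lowest at 6 h, at 11.39, had a median of 11.81 and was highest at 21 h, at 12.22. HSPD1 read 11.39 to 11.51 from 0 to 6 h, 11.68 to 12.22 from 9 to 42 h and 11.43 at 45 h. At 36 to 45 h it read 11.83, 11.71, 11.72 and 11.43, all below 24 to 33 h, as for 22.6% of all tested probes. It fell by 0.32 over the late step (SE 0.10, adjusted p = 0.016). Without the 45 h array that difference was -0.24 (adjusted p = 0.07), and with median scaling it was -0.53 (adjusted p = 0.00022). Its difference between 6 to 9 h and 12 to 21 h, 0.35 (adjusted p = 0.05), stood at the threshold, at 0.14 (adjusted p = 0.59) without the 6 h array, 0.56 (adjusted p = 0.014) without the 9 h array and 0.51 (adjusted p = 0.0049) under median scaling. It also passed without the 18 h array, at 0.44 (adjusted p = 0.015), and at 0.35 without the array at 0, 3, 36 or 45 h.

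HSPB1, a small heat shock protein that holds unfolded clients without ATP and binds the actin skeleton, changed at the same hour in the opposite direction. It was lowest at 27 h, at 15.00, had a median of 15.25 and was highest at 45 h, at 15.72. HSPB1 lay between 15.00 and 15.42 on every array from 0 to 33 h and read 15.61, 15.63, 15.61 and 15.72 from 36 to 45 h, so the last 4 arrays stood above all others. Between the last 2 windows alone, 22.2% of all tested probes were separated in this direction. It rose by 0.59 from 24 to 33 h to 36 to 45 h, a ratio of 1.51 (SE 0.05, adjusted p = 5.1e-08), and by 0.33 against the first 9 h (SE 0.05, adjusted p = 0.00012), calls kept in all 22 and all 24 alternatives. From 6 to 9 h to 12 to 21 h it differed by -0.14 (adjusted p = 0.12), by -0.22 under cyclic loess (adjusted p = 0.033), by -0.24 without the 9 h array (adjusted p = 0.028) and by -0.03 without the 6 h array (adjusted p = 0.82).

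**Figure D3:**
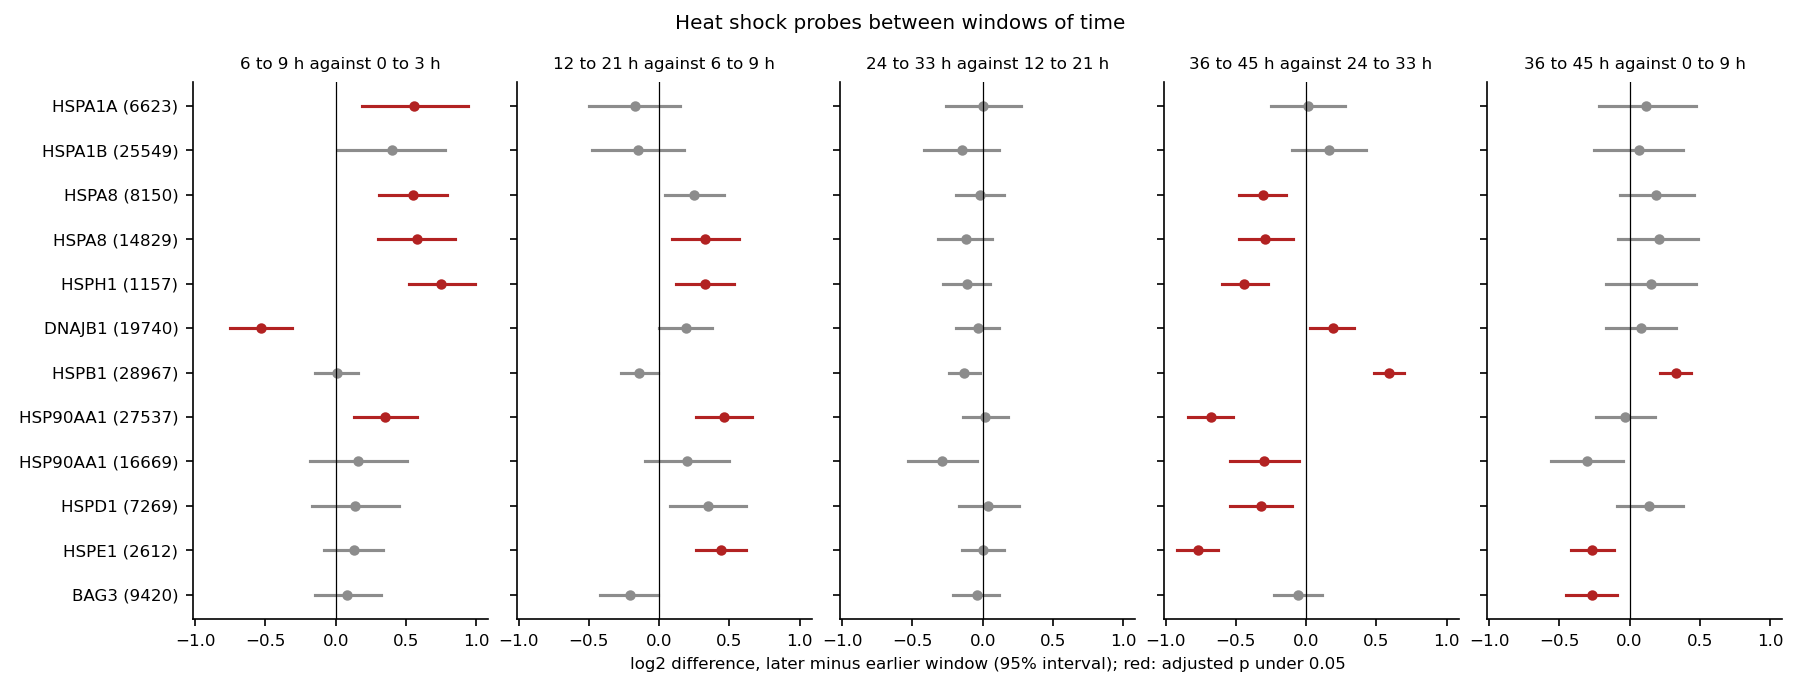
Differences in log2 intensity between windows for the 12 tested heat shock probes, later minus earlier, with 95% intervals from limma; red marks adjusted p under 0.05. The late step holds 9 red probes, with HSPE1 at -0.77 and HSPB1 at 0.59 as its ends, and the step from 12 to 21 h to 24 to 33 h holds 0.

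The probes were compared among themselves over the 16 arrays, which share their normalization and are ordered in time, so r is a description. No grouping was run, and some probes ran closely with no other. The strongest r of BAG3 was -0.40, with HSPD1, and that of DNAJB1 was -0.69, with HSPH1. For the dimmer HSP90AA1 probe it was 0.67, with HSPE1. The bright HSP90AA1 probe ran with HSPE1 (r = 0.93) and HSPH1 (r = 0.90), and ILMN_14829 of HSPA8 with HSPH1 (r = 0.90). HSPB1 ran against HSPE1 (r = -0.92) and against ILMN_27537 of HSP90AA1 (r = -0.78). HSPD1 had r = 0.79 with HSPE1 and r = 0.83 with ILMN_27537 of HSP90AA1. HSPA1A and HSPA1B ran together (r = 0.85), with r = 0.09 and -0.13 to HSPE1, while HSPA1A had r = 0.62 with ILMN_8150 of HSPA8. Of all other tested probes, those most like HSPA1A were ZBTB25 (r = 0.86), HSPA1B (r = 0.85), COL4A1 (r = 0.80), LOC153364 (r = 0.79) and SNX19 (r = 0.78) over 16 arrays. Those most like HSPD1 were NHP2L1 (r = 0.93), EIF3S2 (r = 0.91), NEDD8 (r = 0.91), CTNNAL1 (r = 0.90) and C10orf61 (r = 0.89), under the symbols of the array.

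**Figure D4:**
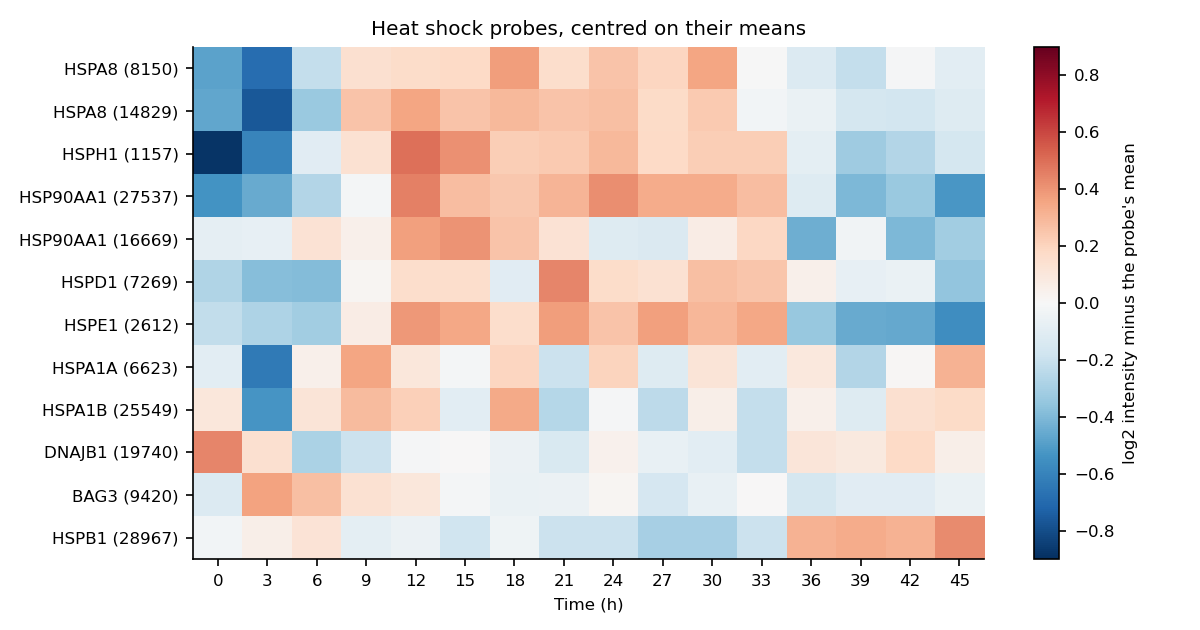
Log2 intensity of each tested heat shock probe minus its own mean, by time in hours, with red above and blue below the mean. HSPA8, HSPH1, HSPE1 and the brighter HSP90AA1 probe are red from 12 to 30 h, HSPB1 is reddest from 36 h, and HSPA1A and HSPA1B are bluest at 3 h.

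The other genes of the chaperone system were taken from 7 lists of 65 genes, of which 62 were on the array and 51 were tested. From 24 to 33 h to 36 to 45 h, 25 of the 51 fell and 5 rose, beside 22.7% and 22.6% of all tested probes. From 0 to 3 h to 6 to 9 h, 14 rose and 3 fell, beside 13.5% and 11.1%. From 6 to 9 h to 12 to 21 h, 15 rose and 3 fell, beside 12.8% and 12.7%. Between 12 to 21 h and 24 to 33 h limma called 0 of them, beside 0.0669% of all tested probes. Against the first 9 h, 8 were higher and 6 lower in the last window, beside 16.2% and 15% of all tested probes. Under median scaling 14 were higher and 5 lower, beside 2794 higher and 1029 lower of all 11957 tested probes. The 8 of the main setting were CRYAB at 0.85, BAG1 at 0.79, TRAP1 at 0.47, FKBP5 at 0.43, SUGT1 at 0.42, UNC45A at 0.41, ST13 at 0.36 and CCT8 at 0.23. The 6 lower were HSPBP1 at -0.84, HSF1 at -0.62, CACYBP at -0.59, GRPEL1 at -0.47, HSBP1 at -0.36 and HSPA9 at -0.30. BAG1 and HSF1 were dim, with window means of 6.47 to 7.51 and of 6.03 to 6.93, in that order. The curve test gave BAG1 adjusted p = 0.06.

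Among HSP90 partners and HSP90AB1, 7 of 14 fell and 3 rose over the late step, beside 22.7% and 22.6% of all tested probes, with a median log2 difference of -0.33 against -0.00 for all tested probes. CACYBP, a binding partner of HSP90 and of ubiquitin ligases, fell by 1.17 (SE 0.13, adjusted p = 4.2e-07), and CHORDC1, an HSP90 co-chaperone, by 1.21 (SE 0.18, adjusted p = 1.4e-05). AHSA1, the activator of the HSP90 ATPase, named after its values were seen, rose by 0.63 at 6 to 9 h (adjusted p = 0.00084) and fell by 0.72 late (adjusted p = 1.8e-06), as the brighter HSP90AA1 probe did. UNC45A, a chaperone of myosin that works with HSP90, rose late by 0.53 (SE 0.07, adjusted p = 8.2e-06). ST13, which links HSP70 to HSP90, rose by 0.28 (adjusted p = 0.0035), and FKBP5, a partner of HSP90 on steroid receptors, by 0.22 (adjusted p = 0.03).

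Of the other HSP70 and HSP110 proteins, 4 of 5 tested fell late and 0 rose, beside 22.7% and 22.6% of all tested probes, with a median of -0.61 against -0.00. HSPA14 rose by 1.05 at 6 to 9 h (adjusted p = 0.00011) and fell by 1.02 late (adjusted p = 9.8e-07), and HSPA9, the HSP70 of mitochondria, fell by 0.42 (adjusted p = 8.2e-06). The strictly inducible HSPA6 was above background on 9 arrays and passed no test, with -0.69 late (adjusted p = 0.083). In the CCT chaperonin, the cytosolic ring that folds actin and tubulin, 6 of 8 subunits fell late and 0 rose, beside the same shares, with a median of -0.34. Of 5 tested mitochondrial chaperones and proteases, 3 fell and 0 rose, beside the same shares, with a median of -0.22 and with GRPEL1, the exchange factor of mitochondrial HSP70, at -0.61 (adjusted p = 0.00017).

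Among the other small heat shock proteins, 1 of 5 tested rose late and 1 fell, and among J proteins and nucleotide exchange factors 1 of 10 rose and 3 fell, beside 22.6% higher and 22.7% lower of all tested probes. The fall among small heat shock proteins was that of HSPB11, C1orf41 on the array, which is counted here by its name alone. HSPB11 fell by 0.59 (adjusted p = 1.2e-05), DNAJA1 by 0.49 (adjusted p = 9.4e-05) and BAG4 by 0.48 (adjusted p = 0.0076), all named after their values were seen. CRYAB, a small heat shock protein of the same family as HSPB1, rose by 1.97 or 3.91-fold (SE 0.10, adjusted p = 1e-10), after a fall of 1.17 between 6 to 9 h and 12 to 21 h (adjusted p = 2.3e-06). DNAJB2, named after its values were seen, fell by 0.71 over that earlier step (adjusted p = 8.4e-06) and rose by 0.97 late (adjusted p = 3.5e-09). HSPBP1, an exchange factor for HSP70, fell by 1.11 late (adjusted p = 0.00029). HSF1 itself was dim and above background on 13 arrays. It fell by 0.59 late (SE 0.16, adjusted p = 0.0055), from a mean of 6.62 to one of 6.03, near background. HSBP1, which binds trimers of HSF1, fell by 0.43 at 6 to 9 h (adjusted p = 0.00086). For comparison, of 11 chaperones of the endoplasmic reticulum 9 fell late and 1 rose, beside 22.7% and 22.6% of all tested probes, with a median of -0.50.

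**Figure D5:**
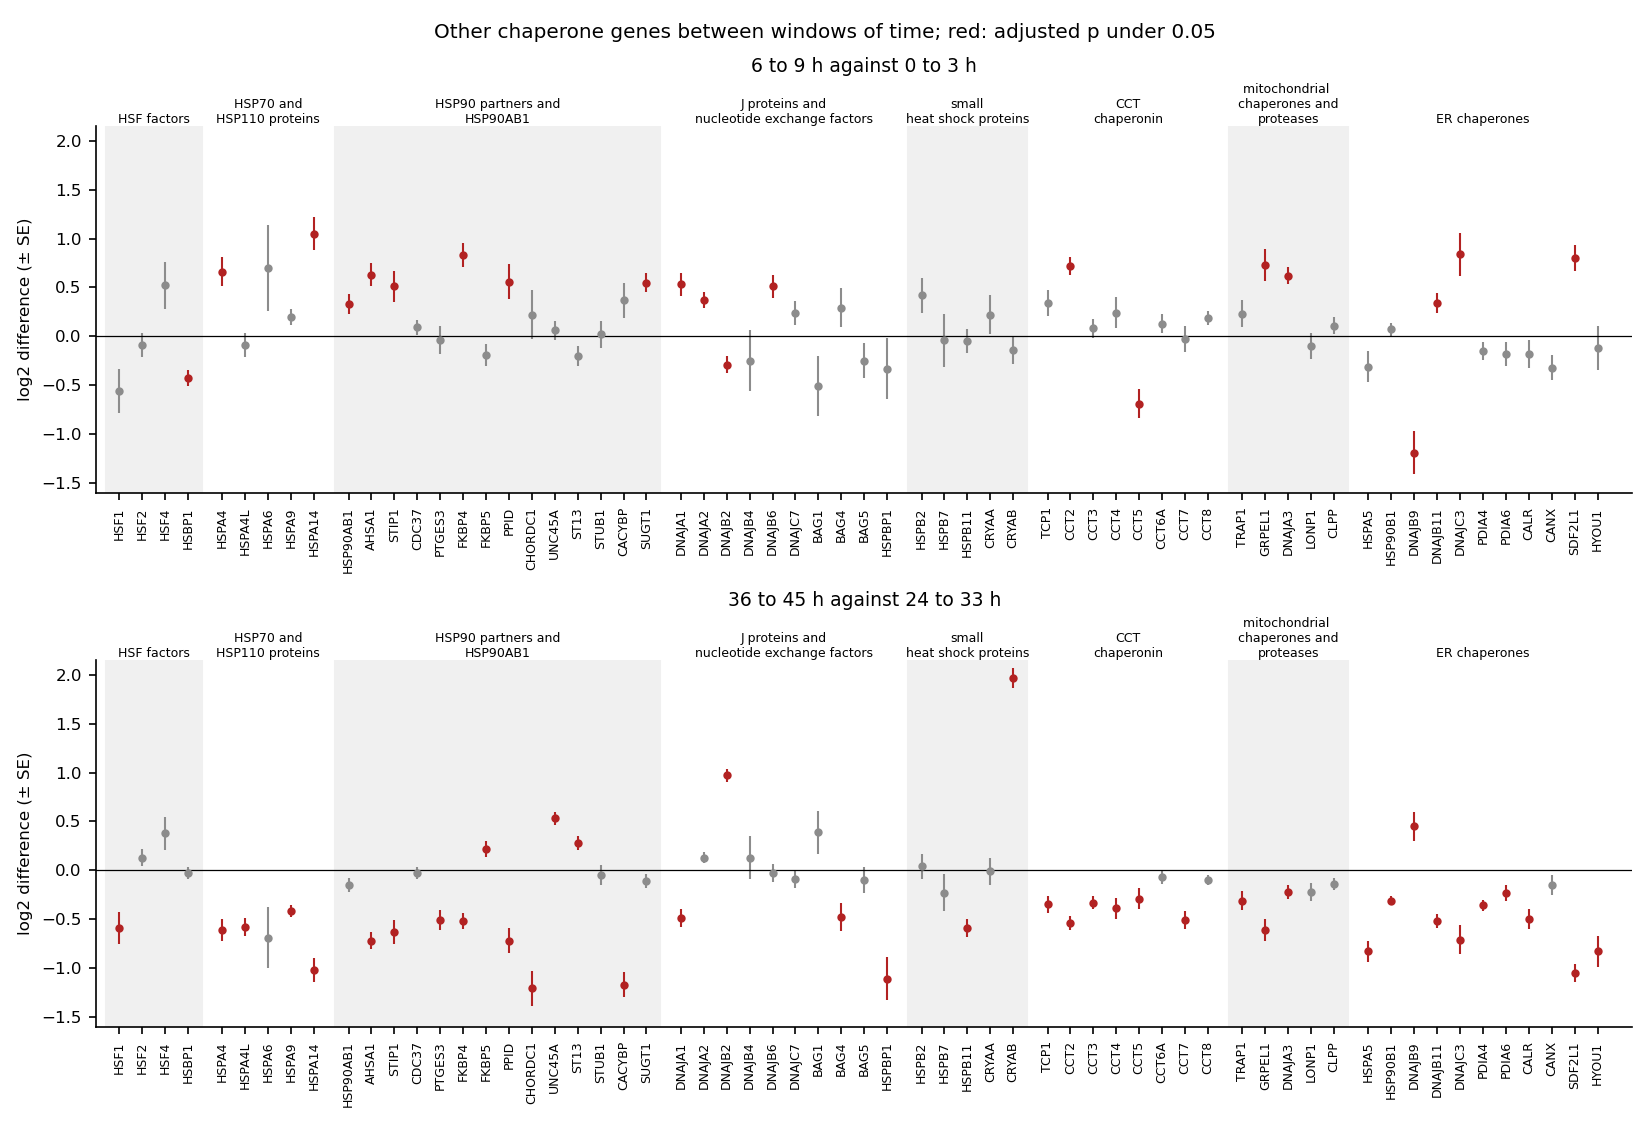
Log2 differences with SE bars of the tested genes of 7 chaperone lists and of the endoplasmic reticulum list, for 6 to 9 h against 0 to 3 h and for 36 to 45 h against 24 to 33 h; red marks adjusted p under 0.05. In the late comparison most red points lie below 0, with CRYAB at 1.97 the highest.

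No label names a chip or a hybridization day. The negative control level inferred for each array was 187.8 to 198.6 from 0 to 21 h and 165.8 to 184.9 from 24 to 45 h. The early steps and the step at 36 h each lie within one of these sets of 8 arrays, and the comparison of the last window with the first 9 h crosses them, as does the step from 12 to 21 h to 24 to 33 h. The part of this difference in that comparison was not tested.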

How the data were processed

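Total RNA of 16 MCF-10A cultures was labelled with biotin and hybridised to Illumina human Ref8v2 arrays. The authors deposited a raw intensity for each row on a linear scale, not normalized between arrays. Beside each intensity they deposited a detection p-value, which ranks the row among negative control beads. The software that made these values is not given in the sources used here.

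In R 4.3.3 with limma 3.58.1, the negative control level of each array was inferred from 19092 rows whose detection p-values are whole multiples of 1 in 708 (tolerance 0.001), leaving out 1497 rows with combined values. Background was then subtracted by normexp with an offset of 16, the arrays were quantile normalized on the linear scale, and log2 was taken afterwards. The offset understates the change of dim probes. A probe was tested if its detection p was under 0.05 on 3 or more arrays, which left 11957 probes for 11290 symbols. The tests in limma were a moderated F for a natural spline of the hours (3 degrees of freedom) and moderated t contrasts between windows in fits of 4 and of 5 windows, with 12 and 11 residual degrees of freedom. P-values were adjusted by the Benjamini-Hochberg method over all tested probes. With 1 array per time point, the number of arrays limits the precision.

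Symbols are those of the file, and current names of older symbols are given where the lists pair them. For a listed gene with several probes, the brightest tested probe counts. All heat shock probes are named. Of the 7 lists, the genes called between 36 to 45 h and 0 to 9 h are named, and some of the 3 with the largest difference there. Other list genes named are marked in the text. The 5 probes most like HSPA1A and HSPD1 were ranked by Pearson r. The members and lists were chosen with earlier results of these data known. Alternatives were other background, offset, scaling, filter, curve and window settings and the omission of each array. Promoters are RefSeq windows of GRCh38.p14, read in Python 3.11.15, and figures were drawn with matplotlib 3.10.9.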

Additional observations from a re-analysis of the deposited data

How the results depend on the processing

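The counts of called heat shock probes changed as follows. A linear trend in time called 0 of 12 probes against 8 for the spline. For 36 to 45 h against 0 to 9 h, with 3 calls, median scaling gave 1 and 0 and 3 h against 42 and 45 h gave 5, all of them higher, where the main setting has 1 higher and 2 lower. The share of all tested probes called between 0 and 3 h and 42 and 45 h is not at hand. The count of 5 therefore cannot be set beside the whole array. The causes were not tested. Leaving out each array in turn gave 7 to 9 calls for the spline, 2 to 5 for 36 to 45 h against 0 to 9 h, 2 to 7 for 6 to 9 h against 0 to 3 h, 0 to 7 for 12 to 21 h against 6 to 9 h, 0 to 0 for 24 to 33 h against 12 to 21 h and 7 to 9 for 36 to 45 h against 24 to 33 h. For 12 to 21 h against 6 to 9 h, the count was 0 without the 6 h array and 7 without the 9 h array, the only other array of that window. For 6 to 9 h against 0 to 3 h it was 2 without the 9 h array, and for 36 to 45 h against 0 to 9 h it was 5 without it. A window with 1 array left is assumed to vary like the others.

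No called difference of a heat shock probe changed its direction in any alternative. Of the values of single heat shock probes under alternatives, 57 lost a call, 33 gained one and 40 moved by 1 SE or more without one. The other 1502 kept their call, moved by under 1 SE without one, or stayed uncalled in the curve test. The curve test has no SE, so the size of a move was not judged there. Median scaling moved the share of higher among called probes of the whole array to 73.1% from 51.8% for 36 to 45 h against 0 to 9 h, to 65.1% from 54.9% for 6 to 9 h against 0 to 3 h, to 70.8% from 50.3% for 12 to 21 h against 6 to 9 h, and to 37.3% from 49.8% for 36 to 45 h against 24 to 33 h. For 24 to 33 h against 12 to 21 h, it was 84.1% of 44 calls against 12.5% of 8. For the other chaperone genes, in settings chosen after seeing the data, median scaling gave 3 higher and 36 lower over the late step against 5 and 25, and 14 higher and 5 lower against 8 and 6 for the last window against the first 9 h, with 0 calls of the main setting turned. Of all 11957 tested probes, median scaling called 2050 higher and 3442 lower over the late step. For the last window against the first 9 h it called 2794 higher and 1029 lower. Dim rows near background, such as the second HSPD1 probe, are limited by signal.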

Other observations

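HSPA1A and HSPA1B showed an alternation between neighbouring arrays that was noticed in their values and not tested. Over the arrays from 15 to 42 h, both were higher at 18, 24, 30, 36 and 42 h than at the neighbouring arrays of that range, in all 9 steps. The range was chosen after seeing the values, and the pattern ends there: at 45 h HSPA1A read 12.07 against 11.77 at 42 h, and HSPA1B 12.72 against 12.69. The mean of those arrays exceeded that of the others by 0.26 on the log2 scale for HSPA1A and by 0.30 for HSPA1B. Among the 11957 tested probes, 135 (1.13%) had this alternation in all 9 steps and 110 (0.92%) had the opposite one. Probe ILMN_8150 of HSPA8 followed it in 8 of 9 steps, and HSPE1 in 1 of 9. Because HSPA1A and HSPA1B probes may bind the same RNA, the pair may count as a single case.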
